A study of Mus musculus with 8 samples.

Results

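The transcripts of 8 nuclear receptors that read out lipids, foreign chemicals and hormones (Ppara, Rxra, Nr1h3, Nr1i2, Nr1i3, Nr3c1, Thrb and Esr1) were examined in liver of calorie-restricted mice. They were taken by gene symbol from the platform annotation, which gave 14 probe sets for these 8 genes among 8251 genes named on the array and 12422 probe sets that are not controls. A probe set is the group of short oligonucleotides that reads 1 transcript. Liver total RNA of 8 mice was hybridised to Affymetrix U74Av2 arrays, 1 mouse per array, and the arrays are called here by the mouse numbers in the labels, 1 to 8. All 8 mice were females of the Ames stock and phenotypically normal. Their genotype was either +/+ or +/df, where df is the recessive dwarf allele, and the labels do not separate the 2 genotypes. All ate 30% less of a standard pelleted diet than normal females that fed freely, and all were killed at 24 to 26 months of age. They form 1 group, with neither freely fed nor dwarf animals among these samples, so the comparison that can be made is between animals of that group. The RNA came from whole liver, in which fewer cells of a type and less RNA per cell cannot be told apart.

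Nuclear receptors are transcription factors that bind small lipid-soluble ligands and then change the transcription of genes whose DNA they occupy. Ppara, Nr1h3, Nr1i2, Nr1i3 and Thrb bind DNA with Rxra as their common partner, whereas Nr3c1 and Esr1 bind mostly as pairs of themselves and leave a chaperone complex when hormone arrives. In liver, Ppara is known for turning on fatty acid oxidation in fasting, Nr1h3 (LXR alpha) for sensing oxysterols, Nr1i2 (PXR) and Nr1i3 (CAR) for inducing drug-metabolising enzymes, Nr3c1 for the glucocorticoid response, Thrb for the thyroid hormone response and Esr1 for the oestrogen response.

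The start regions of 3 members that were low together on arrays 5 and 6 are shown first, because most of the likeness between receptors described here lies on those arrays. Each is the RefSeq window, in build GRCm38.p6, of 300 bases around an annotated start, read 5′ to 3′ on the gene's strand. Capitals mark exact matches, on either strand, to the 5 motifs searched: AGGTCA (the core of nuclear receptor elements), GGGCGG (the GC box), the CCAAT box, the TATA motif TATAAA, and CACGTG (an E-box, which reads alike on either strand). No matches overlapped in these windows.
Ppara, chr15:85735526-85735825, plus strand: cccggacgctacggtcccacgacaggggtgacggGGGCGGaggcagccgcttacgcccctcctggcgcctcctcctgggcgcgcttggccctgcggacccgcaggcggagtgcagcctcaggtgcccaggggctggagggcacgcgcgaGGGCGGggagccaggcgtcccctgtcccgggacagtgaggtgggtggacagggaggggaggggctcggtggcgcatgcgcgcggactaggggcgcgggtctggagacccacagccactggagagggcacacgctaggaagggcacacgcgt
Rxra, chr2:27709042-27709341, plus strand: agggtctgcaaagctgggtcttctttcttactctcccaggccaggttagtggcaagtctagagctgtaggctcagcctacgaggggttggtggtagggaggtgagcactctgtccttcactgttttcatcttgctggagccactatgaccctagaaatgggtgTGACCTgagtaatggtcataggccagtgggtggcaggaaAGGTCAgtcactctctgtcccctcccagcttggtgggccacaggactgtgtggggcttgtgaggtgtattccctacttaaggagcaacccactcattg
Nr1i3, chr1:171213720-171214019, plus strand: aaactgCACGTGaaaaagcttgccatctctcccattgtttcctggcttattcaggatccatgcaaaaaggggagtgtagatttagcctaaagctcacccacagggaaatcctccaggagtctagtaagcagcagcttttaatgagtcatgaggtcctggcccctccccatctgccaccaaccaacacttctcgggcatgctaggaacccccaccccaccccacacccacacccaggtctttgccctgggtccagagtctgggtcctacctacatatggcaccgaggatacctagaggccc
The 3 windows shown had no motif in common. The Ppara window held GGGCGG at 2 places, the Rxra window held AGGTCA at 2 places, and the Nr1i3 window held CACGTG at 1. Among all 32851 windows of that length, 35.7% held GGGCGG, 16.3% held AGGTCA and 7.15% held CACGTG. The GC content was 74.7% for Ppara, 54.3% for Rxra and 54.0% for Nr1i3, against a median of 52.7% over all windows. Rxra has another annotated start, chr2:27676951-27677250, whose window had 83.0% GC and 4 matches to GGGCGG, a motif that the Ppara window also held. Whether Ppara and Rxra share a motif thus depends on which Rxra start is taken. Windows were matched for 7 of the 8 members, all but Nr3c1. A match is a string of letters in the window and was not tested as a binding site.

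The arrays were brought to 1 scale by quantile normalization, because their median deposited signals ranged from 132 to 166, and values are signals in arbitrary units on that scale unless stated. Arrays 5 and 6 stood apart from the rest. The array carries control probe sets at the 3′ and 5′ ends of a few transcripts, and a high log2 ratio between them means that the 5′ end was read poorly. The Gapdh ratio was 4.35 on array 5 and 0.33 on array 6, against -0.24 to -0.17 on the other 6. The pyruvate carboxylase ratio was 4.33 and 4.30 on those arrays, against 1.42 to 2.76 elsewhere. The β-actin ratio was 1.34 on array 5 and 0.84 on array 6, against 0.53 to 0.76 elsewhere. By the Gapdh and β-actin ratios array 6 thus lay nearer to the other arrays than array 5 did. Array 5 correlated with the others at a median r of 0.881 and array 6 at 0.943, whereas the 6 other arrays correlated with each other at 0.961 to 0.979 (log2 signals across probe sets). Results on the members are therefore given with and without arrays 5 and 6, and the part of RNA quality in what follows was not tested. The hepatocyte markers Alb, Ttr, Apoa1, Cps1, Ahsg, Tat and Serpina1e were all detected above the level filter, and their summed signal ran from 151896 (array 5) to 167584 (array 6). The Kupffer and macrophage markers (8 of 9 on the array) summed to 3887 on array 5 and 4744 on array 6, against 4791 to 6018 on the others, but single markers went both ways: on array 5 C1qa was lowest (80.0) and Csf1r highest (933).

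Rxra, the shared partner, was detected on every array. Its brightest probe set (92234_at) ranged from 642 on array 5 through a median of 1309.6 to 1651 on array 3, with a mean of 1206 ± 349.9 (SD, n = 8). Arrays 5 and 6, at 642 and 789.7, were both below the other 6 arrays, which lay between 1069 and 1651. The range of 2.57-fold narrowed to 1.54-fold over those 6. A further probe set of the same gene (92235_g_at) gave 513 on array 5 and 661 on array 6, against 883 to 1134 on the others. The 2 sets correlated at r = 0.948 over 8 arrays and 0.618 over 6, so their likeness came in part from the pair of low arrays.

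Ppara, the fatty acid sensor, was the most variable of the members that passed the level filter. Its single probe set (102668_at) read 238 on array 6 and 270.2 on array 5, had a median of 741 and reached 1942 on array 7, with a mean of 968 ± 678 (SD, n = 8). The values did not spread evenly. Arrays 2, 4 and 7 read 1801, 1473 and 1942, and arrays 1, 3 and 8 read 535, 811 and 671. The range was 8.15-fold over 8 arrays and still 3.63-fold over the 6 arrays without 5 and 6, so the spread of Ppara was not limited to that pair.

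Nr1h3, the oxysterol receptor, had the smallest spread of the members over 8 arrays, with a CV (SD as a percent of the mean) of 11.7%. Over the 6 arrays without 5 and 6 its CV was 7.04%, above the 5.19% of Nr1i3. Its probe set (104381_at) ran from 1129 on array 5 through a median of 1497 to 1701 on array 7, with a mean of 1486 ± 174 (SD, n = 8). Array 5 alone lay apart, since the other 7 arrays lay between 1419.9 and 1701, and array 6, at 1629, was among the highest.

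The xenobiotic receptors differed from each other in how they varied. Nr1i2 (93696_at) ranged from 346 on array 5 through a median of 542 to 653 on array 6, with a mean of 526 ± 101 (SD, n = 8). Arrays 5 and 6 were thus its extremes. Nr1i3 is read by 3 probe sets. The brightest (102171_r_at) was 2299 on array 5 and 5605 on array 6, had a median of 6917 and reached 7653 on array 2, with a mean of 6348 ± 1751 (SD, n = 8). On the 6 other arrays it stayed within 6781 to 7653, a range of 1.13-fold, compared with 3.33-fold over all 8. The other Nr1i3 sets showed the same order of low arrays, with 1789 and 2886 on arrays 5 and 6 for 104506_at (others 3699 to 4679.9) and 3111 and 4526 for 104507_g_at (others 5157 to 5819). The drop on array 5 differed in size between them, and over the 6 arrays 102171_r_at correlated with them at 0.305 and 0.807.

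The hormone receptors Nr3c1, Thrb and Esr1 were dim and did not pass the level filter, which kept the 6211 probe sets (4810 genes) with a mean above the median of all. Nr3c1, the glucocorticoid receptor (98818_at), was 14.4 on array 5, under the floor of 24.6 applied to low signals, and 54.0 on array 6. The other 6 arrays read 102 to 216, and the mean over 8 was 133 ± 70.9 (SD, n = 8). Thrb, the thyroid hormone receptor (98795_at), ranged from 62.0 on array 5 through a median of 160.2 to 201 on array 2, with a mean of 145 ± 47.9 (SD, n = 8). Array 1, at 92.0, was its next lowest, and array 6, at 128, was inside the range of the others. Esr1, the oestrogen receptor, is read by 4 sets, and the brightest (93946_at) ranged from 32.3 on array 5 through a median of 49.5 to 136 on array 4. Its mean was 66.9 ± 35.7 (SD, n = 8). The Esr1 sets followed each other only in part. The set 161113_at correlated with 93946_at at r = -0.672, with 93945_at at -0.044 and with 93947_g_at at -0.37. The brightest set correlated with 93945_at at 0.433 and with 93947_g_at at 0.686, but 93947_g_at lay at or under the floor on 7 of 8 arrays. The Esr1 level on single arrays is thus not settled by these probe sets.

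**Figure D1:**
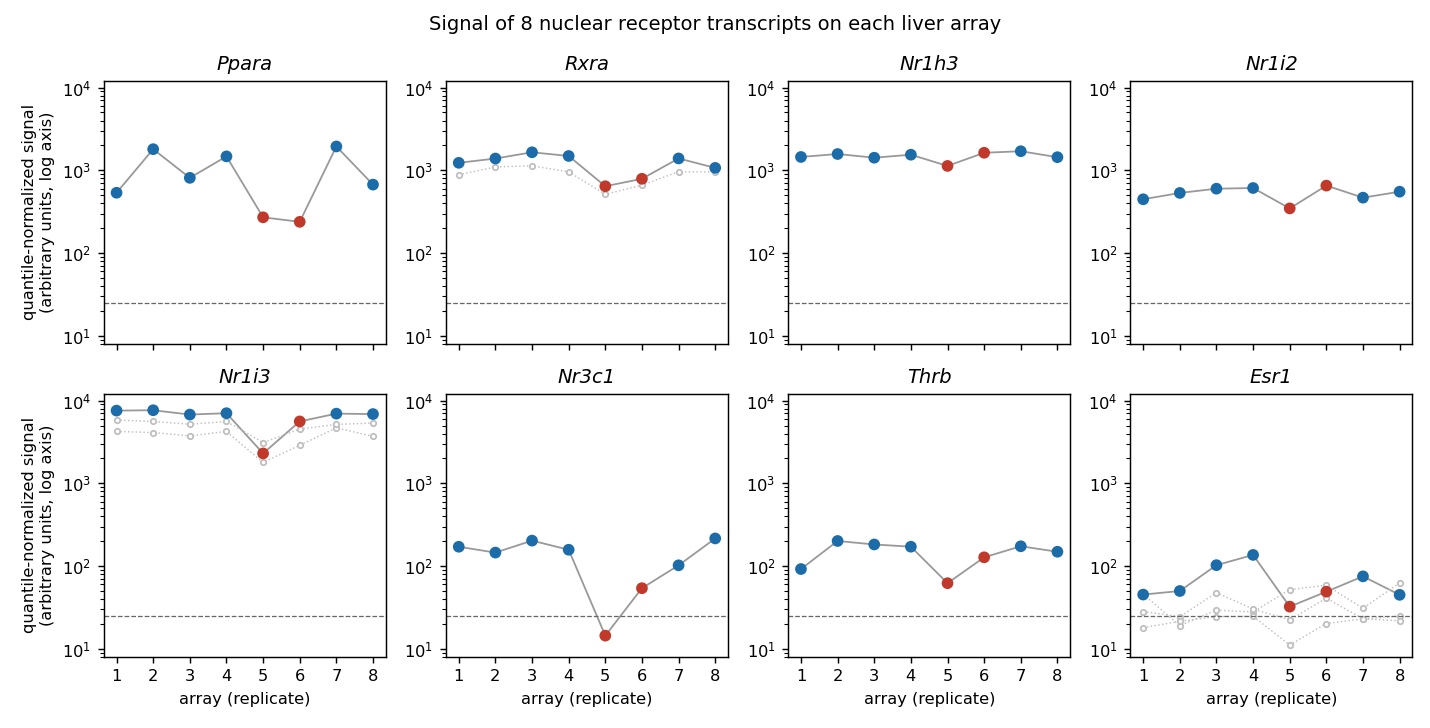
Signal of each member on arrays 1 to 8 (quantile-normalized, arbitrary units, log axis), with filled points for the brightest probe set, open points for other probe sets, red for arrays 5 and 6, and a dashed line at the floor of 24.6. Ppara spans 238 to 1942, Nr1i3 falls on array 5 to 2299, and Nr1h3 stays within 1129 to 1701.

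The lowest array of all 8 members was array 5 or array 6. Ppara was lowest on array 6 and the other 7 on array 5. Among all 8251 genes on the array, 39.2% were lowest on array 5 or 6. Of the 5 members that passed the level filter, 4 were lowest on array 5 and 5 on array 5 or 6, against 28.3% and 44.9% of the 4810 kept genes. A member with a low value on array 5 is therefore what 28.3% of the kept genes also showed.

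Spread between animals was tested with limma's variance model, which divides the variance of a probe set over the 8 arrays by the variance typical of probe sets at the same level and tests the ratio with a 1-sided F test. On the log2 scale a ratio of 0 is the typical spread. After Benjamini-Hochberg adjustment over the 6211 kept probe sets, 0% passed an adjusted p of 0.05, and the lowest adjusted p was 0.842. At an unadjusted p of 0.05, 5.67% of probe sets passed. The typical variance and the scatter around it were fitted to these same probe sets, so a share near that threshold was largely set by the fit. Neither this share nor the lack of adjusted calls shows that excess spread between animals was absent. Of the 5 members kept, 2 passed unadjusted and 0 adjusted. Ppara had a log2 variance ratio of 4.42 (unadjusted p = 0.00497, limma adjusted p = 0.842), and its ratio exceeded that of 99.6% of kept probe sets. Without arrays 5 and 6 its ratio was 4.54 (unadjusted p = 0.00196, limma adjusted p = 0.460). Nr1i3 had a ratio of 3.02 (unadjusted p = 0.0299, limma adjusted p = 0.853), which became 0.02 without array 5 and -1.54 without arrays 5 and 6. Its other probe sets had ratios of 1.96 (unadjusted p = 0.102) and 0.93 (unadjusted p = 0.276) in the same limma test, so neither passed. The excess spread of Nr1i3 thus rested on array 5. Rxra had a ratio of 1.87 over 8 arrays and 0.87 over 6, Nr1i2 had 0.36 over 8 and -0.054 over 6, and Nr1h3 had -0.90 over 8 and -1.39 over 6, below the typical spread. The median ratio was 1.87 over the 5 members and 0.12 over all kept probe sets. By range, 3 of the 5 members (Ppara, Rxra and Nr1i3) spanned over 2-fold from lowest to highest array, against 37.2% of kept genes. Over the 6 arrays only Ppara did so among these 5, against 10.1% of kept genes.

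**Figure D2:**
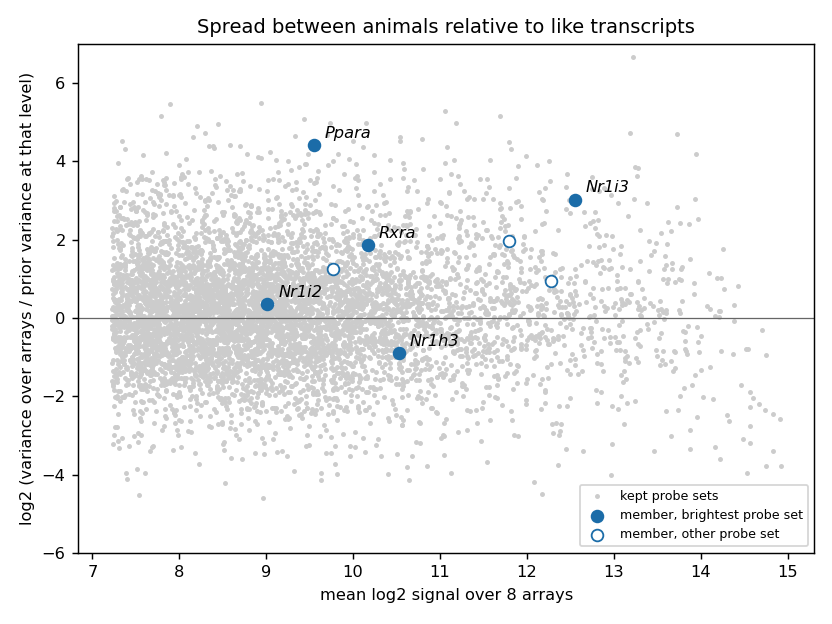
Log2 of the variance over 8 arrays divided by the prior variance at that level (vertical axis) against mean log2 signal (horizontal axis) for the 6211 kept probe sets in grey, with the brightest probe sets of 5 members as filled and their other probe sets as open blue circles. Ppara, at 4.42, lies near the upper edge of the grey points, and Nr1h3, at -0.90, lies below 0.

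Whether the receptors rose and fell together across animals was tested for the 10 pairs among the 5 kept members. For each pair, Pearson's r of log2 signals was set against all 40320 pairings of the 8 arrays (exact permutation test, 2-sided), with Benjamini-Hochberg adjustment over the 10 pairs and Spearman's rho beside it. All 10 coefficients were positive, with a median r of 0.643. Of the pairs, 3 passed an unadjusted p of 0.05 and 0 passed after adjustment. Pairs of other kept genes were not counted, so these counts are not shown to be particular to the receptors. Ppara and Rxra had r = 0.832 (exact permutation p = 0.0103, adjusted p = 0.0578) and rho = 0.738 (exact permutation p = 0.0458). Their r was 0.434 without arrays 5 and 6, which were also the 2 arrays farthest from the median of Ppara. Rxra and Nr1i3 had r = 0.814 (exact permutation p = 0.0116, adjusted p = 0.0578) but rho = 0.452 (exact permutation p = 0.267), and r was -0.18 without arrays 5 and 6. Ppara and Nr1i3 had r = 0.632 (exact permutation p = 0.0324, adjusted p = 0.108) and rho = 0.619 (exact permutation p = 0.115), and r was 0.0559 without that pair of arrays. The 2 relations of Nr1i3 therefore rest on arrays 5 and 6. That of Ppara and Rxra was smaller without both arrays but stayed positive, and was 0.785 without array 5 alone and 0.779 without array 6 alone. With 6 arrays it is not settled whether it rests on that pair. Over the 6 remaining arrays the median r was 0.114 and 7 of 10 coefficients were positive. There, Ppara and Nr1h3 had the highest coefficient, r = 0.881 (exact permutation p = 0.0319, adjusted p = 0.319), compared with 0.543 over 8 arrays.

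**Figure D3:**
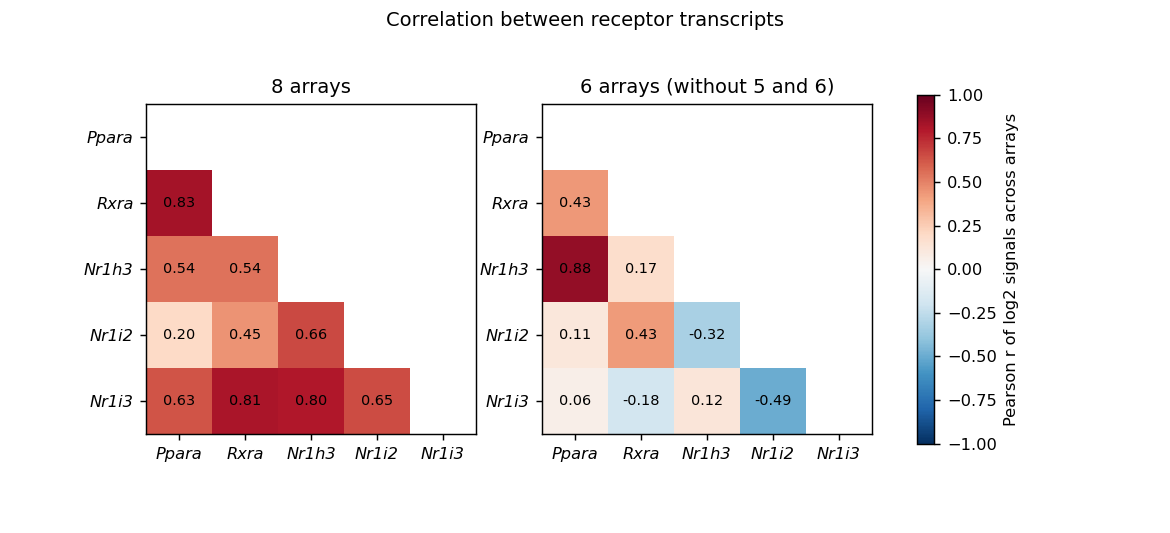
Pearson r of log2 signals for the 10 pairs of kept receptors, over all 8 arrays (left) and over the 6 arrays without 5 and 6 (right), with colour from -1 (blue) to 1 (red). All pairs on the left are positive, with a median of 0.643, whereas on the right the median is 0.114.

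With the 3 dim receptors added there were 28 pairs. All 28 coefficients were positive over 8 arrays, 11 passed an unadjusted p of 0.05 by the exact permutation test and 0 passed after adjustment, the lowest adjusted p being 0.0996. Here too, no share over pairs of other genes was computed. The highest coefficient was r = 0.885 for Nr1i3 and Nr3c1, which was -0.21 without arrays 5 and 6. Without those arrays the median r of the 28 pairs fell to 0.136 and 17 were positive. The strongest there was Nr1h3 and Nr3c1, at r = -0.96 (exact permutation p = 0.00278, adjusted p = 0.0778), compared with 0.462 over 8 arrays.

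Receptor transcripts were then set against target genes that each receptor is known to control, in 33 receptor and target pairs of which 16 had both genes kept. By the same exact permutation test 1 pair passed unadjusted and 0 passed after adjustment over the 16. That pair was Ppara and Pex11a, which encodes a peroxisome division protein. Pex11a read 157 on array 5, 591 on array 6 and 1613 on array 2, and the other arrays lay between 596 and 1066. It correlated with Ppara at r = 0.790 (exact permutation p = 0.00439, adjusted p = 0.0702) and rho = 0.881 (exact permutation p = 0.00724, adjusted p = 0.116). Without arrays 5 and 6 the coefficient was 0.822 (exact permutation p = 0.0375, adjusted p = 0.30), so this relation was as large without them. Coefficients of the other 5 Ppara targets that were paired were negative over 8 arrays. Cyp4a10, a fatty acid omega-hydroxylase, stayed within 4152 to 6373 on all 8 arrays and had r = -0.16 (exact permutation p = 0.706, adjusted p = 0.734) and rho = -0.12, with r = -0.36 over 6 arrays. The coefficient was -0.66 for Cyp4a14 (-0.37 over 6 arrays), -0.66 for Pdk4, a kinase that restrains pyruvate oxidation (-0.098 over 6), and -0.37 for Acot1, an acyl-CoA thioesterase (-0.18 over 6). Cpt1a, the entry step of mitochondrial fatty acid oxidation, turned sign, from -0.33 over 8 arrays to 0.431 over 6. None of these passed an unadjusted p of 0.05 by the exact permutation test. In the longer list of 17 kept Ppara targets, described without a test, 5 coefficients with Ppara were positive over 8 arrays and 8 over 6, with median r of -0.14 and -0.098. Over all kept genes 46.2% were positive over 8 arrays, a share not computed over 6, and the medians were -0.059 and -0.054. Single targets moved both ways between the 2 sets of arrays. Plin2, a lipid droplet coat protein, had r = 0.717 over 8 arrays and 0.0849 over 6. Angptl4 went from -0.0063 to 0.894 and Slc27a2 from -0.0021 to 0.718, whereas Acadl went from -0.42 to -0.70 and Ehhadh from -0.32 to -0.61.

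For the other receptors no pair passed an unadjusted p of 0.05 over 8 arrays. Nr1h3 and Abca1, the cholesterol exporter, had r = -0.73 (exact permutation p = 0.0590, adjusted p = 0.304) and rho = -0.45, and r was -0.17 without arrays 5 and 6. The brightest Abca1 set was highest on array 5, at 2110.0, where Nr1h3 was lowest. With the mean over probe sets in place of the brightest, the coefficient was 0.584, so the sign for this pair depended on the Abca1 probe set. Nr1h3 and Cyp7a1, which starts the conversion of cholesterol to bile acids, had r = 0.770 (exact permutation p = 0.0949, adjusted p = 0.304) and r = 0.135 over 6 arrays. Nr1i2 and Cyp3a11, a drug-metabolising cytochrome, had r = 0.475 (exact permutation p = 0.233, adjusted p = 0.466) and 0.415 over 6 arrays. That coefficient turned to -0.12 under the deposited scaling and -0.42 under median scaling, while Cyp3a11 moved only 1.16-fold, from 15672 to 18199. Nr1i3 and Cyp2b10, its classical target, had r = -0.0750 (exact permutation p = 0.734, adjusted p = 0.734) over 8 arrays and -0.82 without arrays 5 and 6 (exact permutation p = 0.0125, adjusted p = 0.200). The -0.82 is for the brightest Nr1i3 set, which moved only 1.13-fold over those 6 arrays. That set correlated with the other Nr1i3 sets at 0.305 and 0.807 there, and the other sets were not tested against Cyp2b10. Cyp2b10 read 3613 on array 6 and 716 to 1226 on all other arrays, so its highest value fell where Nr1i3 was second lowest. Without the level filter there were 29 pairs, of which 13 belonged to the 3 dim receptors (7 for Nr3c1, 3 for Thrb and 3 for Esr1). Of those 13, 0 passed an unadjusted p of 0.05 by the exact permutation test, over 8 arrays or over 6. Nr3c1 and Tat, a glucocorticoid-induced aminotransferase, had r = -0.084 (exact permutation p = 0.860, adjusted p = 0.860), rho = 0.190 and r = 0.282 over 6 arrays. Thrb and Thrsp, a lipogenic thyroid hormone target, had r = -0.16 (exact permutation p = 0.707, adjusted p = 0.789), rho of 0 and r = 0.0447 over 6. Esr1 and Lifr, a cytokine receptor, had r = -0.13 (exact permutation p = 0.766, adjusted p = 0.794), rho = -0.33 and r = -0.16 over 6. The signs for Nr3c1 and Thrb thus depended on arrays 5 and 6 and on the measure.

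**Figure D4:**
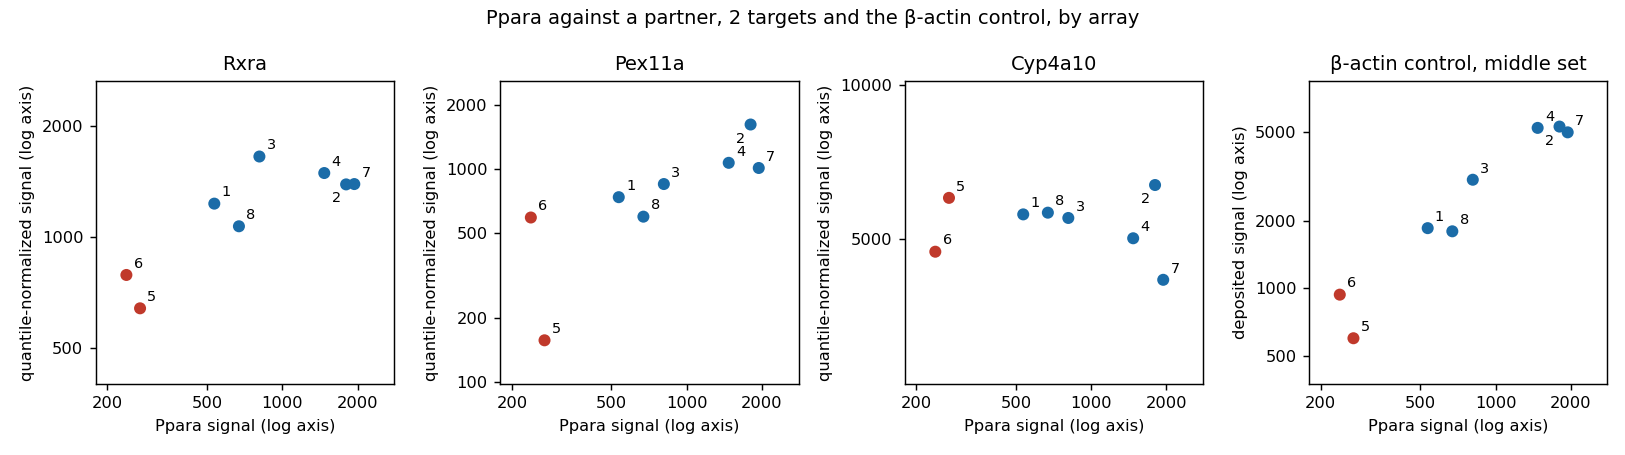
Ppara signal (horizontal, log axis) against Rxra, Pex11a and Cyp4a10 (quantile-normalized signal) and the middle β-actin control set (deposited signal), vertical log axes; numbers are arrays and red marks arrays 5 and 6. Rxra, Pex11a and the β-actin control are high where Ppara is high, at r of 0.832, 0.790 and 0.968, whereas Cyp4a10 has r = -0.16.

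The β-actin control sets, which the array carries to gauge RNA quality, followed Ppara closely. This was seen after the values were examined and is a description without a test. The middle set read 598 and 937.7 on arrays 5 and 6, 1803 to 3069 on arrays 1, 3 and 8, and 5005 to 5312 on arrays 2, 4 and 7, the order in which Ppara also fell into 3 levels. Its r with Ppara was 0.968 over 8 arrays and 0.956 without arrays 5 and 6. The 3′ and 5′ sets gave 0.969 and 0.956. The same middle set correlated with Rxra at 0.916 (0.644 over 6 arrays), with Nr1i3 at 0.759 (0.0697 over 6), with Nr1h3 at 0.649 (0.765 over 6) and with Nr1i2 at 0.392 (0.244 over 6). The array's other Actb sets did not follow Ppara, at r of -0.68 for 101578_f_at and 0.483 for 95705_s_at, while the Gapdh controls had r of -0.18 (3′), 0.488 (middle) and 0.536 (5′), or -0.17, 0.189 and -0.25 over 6 arrays. What the β-actin control shares with Ppara was not tested, and the values stand beside every Ppara result above.

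The 2 kept genes whose log2 signals most resembled each kept member over the 8 arrays are given as a description, with 4809 genes compared for each. Closest to Ppara were Pip5k1a (r = 0.980), a phosphoinositide kinase, and Gpd2 (r = 0.957), the mitochondrial glycerol-3-phosphate dehydrogenase, at 0.961 and 0.957 over 6 arrays. Pip5k1a moved only from 418 to 588. Only 14 of the 4809 genes passed r = 0.9 with Ppara. Closest to Rxra were Parg (0.978, and 0.864 over 6 arrays), which removes poly(ADP-ribose), and Bcl7c (0.972, and 0.833 over 6). Both were lowest on array 5 and next lowest on array 6, Parg at 42.5 and 69.1 against 166 to 277 elsewhere. Closest to Nr1h3 were Yipf3 (0.990, and 0.954 over 6) and Gaa, the lysosomal alpha-glucosidase (0.976, and 0.937 over 6). Closest to Nr1i2 were Wrn, a RecQ helicase (0.946, and 0.864 over 6), and Mrpl37, a mitochondrial ribosomal protein (0.941, and 0.763 over 6). Closest to Nr1i3 were Rhog, a small GTPase (0.996, and 0.986 over 6), and Cmpk1, a nucleotide kinase (0.994, and 0.862 over 6), both lowest on array 5. For Nr1i3, 265 genes passed r = 0.9, compared with 122 for Nr1h3, 46 for Rxra and 19 for Nr1i2.

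The rest of the receptor system was described from 10 gene lists, with the variance test of the 6211 kept probe sets. In each list 0 genes passed the adjusted p, so counts are at an unadjusted p of 0.05 and stand beside the 5.67% of all kept probe sets. Refitted without arrays 5 and 6, where 6.15% of kept probe sets passed, the counts are given as over 6 arrays. Of 40 other nuclear receptors, 30 were on the array, 15 were kept and 2 passed, with a median log2 ratio of 0.28 (over 6 arrays 1, Nr0b2, and 0.75). Hnf4a, a liver receptor that sets hepatocyte identity, read 187 on array 5, 741 on array 6 and 1313 to 2029 on the others (ratio 4.36). Esrra read 281 on array 5 against 837 to 1236 (ratio 2.90). Nr0b2, the repressor SHP, read 300.2 to 1115 (ratio 2.56, unadjusted p = 0.0522). Hnf4a and Esrra were thus lowest on the array where 7 of the 8 members were lowest.

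Coregulators, chaperones and ligand-handling enzymes gave 0 genes past the unadjusted p over 8 arrays. Over 6 arrays 2 passed, Cyp7b1 and Cyp26a1. Of the coregulators 6 of 16 were kept (median ratio 0.17), and the most variable were Crebbp, an acetyltransferase (102 to 483, ratio 2.11), Lpin1, a Ppara coactivator (4881 on array 6 against 2015 to 2756, ratio 1.56), and Ncoa4 (1403 to 2492, ratio 0.36). Of the receptor chaperones 7 of 9 were kept (median ratio 0.17), led by Fkbp5, also a glucocorticoid target (3426 on array 6 against 1169 to 1948, ratio 2.11), Stip1 (147 on array 5 against 332 to 487, ratio 1.97) and Stub1 (473 to 1049.5, ratio 1.09). Of the genes of ligand supply and clearance 12 of 24 were kept (median ratio 0.11), led by Cyp7b1, which clears oxysterols (243 to 776, ratio 2.20), Cyp26a1, which degrades retinoic acid (80.2 to 452, ratio 2.18), and Aldh1a1, which makes it (9790 on array 6 against 14568 to 17777, ratio 1.52).

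Among the target lists, 2 of 17 kept Ppara targets passed unadjusted (median ratio 1.08), and 4 passed over 6 arrays (median 0.81), with Pex11a and Plin2 again among them. The 2 were Pex11a (ratio 3.94) and Plin2 (2008 on array 6, 2153 on array 5 and 3037 to 6758 on the others, ratio 2.95). Vnn1, a pantetheinase, came next (122 to 518, ratio 2.45). Of 10 kept Nr1h3 targets 2 passed (median ratio 0.39; over 6 arrays 2, Pltp and Fasn, and 0.62), Cyp7a1 (201 on array 5, 1078 on array 6 and 1839.9 to 2349.6 elsewhere, ratio 4.63) and Scd1, a fatty acid desaturase (7632 on array 6 against 14655 to 21577, ratio 3.05). Fasn, the fatty acid synthase, ranged from 1550.4 on array 6 to 5258 (ratio 2.46). Of 16 kept targets of Nr1i2 and Nr1i3, 3 passed (median ratio 0.52; over 6 arrays 1, Cyp2b13, and 0.31): Cyp2b13 (512 on array 6 against 1701 to 4083, ratio 4.02), Cyp2b10 (ratio 2.88) and the canalicular transporter Abcc2 (231 on array 5 and 368 on array 6 against 647 to 922, ratio 2.64). Cyp2b13 and Cyp2b10 are closely related genes whose probes may cross-react, and on array 6 they lay at opposite ends of their ranges.

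The target lists of the 3 dim hormone receptors had median ratios of 2.01 to 2.36, and no test compared lists. Of 18 kept Nr3c1 targets 6 passed unadjusted (median ratio 2.01), and 9 passed over 6 arrays (median 2.32). On array 6, where Nr3c1 itself read 54.0, 12 of the 18 targets were highest, against 18.8% of all kept genes. On array 5, where Nr3c1 was lower still at 14.4, 1 of the 18 was highest and 7 were lowest, against 28.3% of kept genes lowest there. The targets thus did not go 1 way on the arrays where Nr3c1 was low. The most variable were Zbtb16, a zinc finger repressor (82.6 to 879, ratio 4.38), Igfbp1, a secreted binding protein for insulin-like growth factors (3297 on array 6 against 363 to 773, ratio 3.94), and the metallothionein Mt2 (13888 on array 6, 5461 on array 5 and 1998 to 3457 on the others, ratio 3.87). Of 10 kept Thrb targets 2 passed (median ratio 2.09; over 6 arrays 3 and 1.71), Cyp7a1 and Bcl3 (59.3 on array 6 against 284 to 528, ratio 3.76), and Fasn came next. Of 9 kept Esr1 targets 3 passed (median ratio 2.36; over 6 arrays 4 and 1.68): Cyp17a1, a steroid hydroxylase (306 to 2143, ratio 4.18), the lysosomal protease Ctsd (764 on array 5 against 3100.1 to 4083, ratio 3.56) and the apolipoprotein Apoa4 (8464 on array 6 against 2250 to 4071, ratio 2.80). Zbtb16 and Cyp17a1 also varied over the 6 other arrays, at 82.6 to 879 and 306 to 1658. Several of these genes, including Cyp7a1, Fasn and Fkbp5, stand in more than 1 list.

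Summed markers of some other cell types lay apart on array 5 or 6. The adipose markers (3 of 4 on the array) read 1511 on array 5 and 6756 on array 6 against 3253 to 3937. Most of that sum was Pnpla2 (1098 and 4750 on arrays 5 and 6) and Lep (333 and 1942). The sum thus reads mainly those genes, and the amount of fat cells was not tested. The erythroid markers (2 of 3 on the array) read 2709 on array 6 and 6979 on array 5 against 6589 to 7702. The stellate and fibroblast markers (7 of 8) read 5475 on array 6 and 7203 on array 5 against 6637 to 7778. Of their 6 kept genes 3 were lowest on array 6, among them the brightest, Dcn, at 2952 against 3840 to 4680. Col1a1 (417), Col1a2 (1605) and Des (209) lay within the range of the other arrays on array 6. The B and plasma cell markers (4 of 5) read 524 on array 6 and 945 on array 5 against 719 to 1052, and the neutrophil markers (5 of 5) read 566 and 512 on arrays 6 and 5 against 284 to 479.6. Exocrine pancreas genes (2 of 5) ranged from 53.2 on array 5 to 1982. Endothelial markers (7 of 8), at 3372 and 3394 on arrays 5 and 6, lay within the 3235 to 4336 of the others, and skeletal muscle markers (3 of 3) and T and NK cell markers (4 of 5) also lay within the range of the others on both arrays. Cholangiocyte markers (3 of 5) read 29.0 and 24.1 on arrays 5 and 6 against 35.6 to 227. Cholangiocyte and T and NK cell markers had 0 genes above the level filter. The part of these cells in the receptor values was not tested.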

How the data were processed

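Liver RNA of 8 mice, 1 per array, was measured, and the deposited values hold a linear intensity for each probe set of each array. The authors' image analysis is named but not detailed per the labels, and its settings are not recorded there. The deposited intensity columns had 2% trimmed means of 500.4 on each array. The columns were quantile-normalized after the 66 control probe sets were left out, floored at 24.6 (the 20th percentile of positive signals) and taken to log2. Probe sets whose mean exceeded the median were kept. Genes were named from the platform annotation, in which 10833 probe sets had 1 symbol, 396 several and 1193 none. The brightest probe set stood for a gene. Variance was tested with limma 3.58.1 in R 4.3.3 (7 residual and 4.03 prior degrees of freedom), and pairs by the exact permutation test. Both were run on simulated data, in which most probe sets had a more even spread than here. That run therefore does not show what the variance test could call in these data. Depth does not apply to arrays, and their number, 8, limits the precision.

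Named were all members, the 2 genes most like each kept member, the 3 kept genes of highest variance ratio in each list, every target of a pair past an unadjusted p of 0.05 and the first measured target of each receptor. The other targets of the pairs, further genes of the Ppara target list, the control sets and cell markers were named beyond that rule, after their values were seen. The members, lists and pairs were chosen with earlier results of these data known. Alternatives covered scaling, floor, level filter, probe sets, rank correlation and arrays left out. Promoter windows were taken from RefSeq (GRCm38.p6).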

Additional observations from a re-analysis of the deposited data

Results flagged for a closer look

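Among the 52 named genes, 19 had 1 array farther from the rest than Dixon's 95% limit for 8 values. The limit is set so that chance gives about 1 in 20, but these genes were named partly for their spread or their likeness to members low on array 5, and 20.8% of all 4810 kept genes passed it too. The far array was array 5 for 11 genes and array 6 for 8, and no other array was singled out. The part of RNA quality on those arrays was not tested.

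Of the receptors themselves, Nr1i3 was low on array 5 at 2299 (others 5605 to 7653) and Nr1h3 was low there at 1129. Hnf4a was low at 187 (others 741 to 2029) and Esrra at 281. Ppara, Rxra, Nr1i2, Nr3c1, Thrb and Esr1 had no array past the limit. The rule looks for a single far array and can miss a pair that is low together. Arrays 5 and 6 were such a pair for Ppara, Rxra and Nr3c1.

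Also low on array 5 were the Ppara target Pex11a at 157, Cyp7a1 at 201, Ctsd at 764, the chaperone Stip1 at 147, Yipf3 at 1003, Rhog at 54.5 (others 299 to 765) and Cmpk1 at 1150 (others 1451 to 1605).

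On array 6 the targets Igfbp1 at 3297, Cyp2b10 at 3613 (others 716 to 1226) and Apoa4 at 8464 were high, as was Lpin1 at 4881 (others 2015 to 2756). On the same array Cyp2b13 was low at 512 (others 1701 to 4083), Bcl3 at 59.3, Scd1 at 7632 and Aldh1a1 at 9790.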

How the results depend on the processing

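The count of probe sets past limma's adjusted p of 0.05 was 0 in each of the alternatives run, while 352 passed unadjusted in the reported setting. Members past the unadjusted p numbered 1 under median scaling, 1 with the mean over probe sets, 1 without arrays 5 and 6, 0 with no level filter, and 1 to 2 when single arrays were left out, where the 1 was without array 5. With no level filter 0 of 12422 probe sets passed even unadjusted. That fit had 0.599 prior degrees of freedom, against 4.03 in the reported setting, so passing needed a far larger ratio. There Ppara had a ratio of 8.04 but an unadjusted p of 0.142 in limma's test. Receptor pairs past the adjusted exact permutation p numbered 2 with the level filter at the 75th percentile, where only 6 pairs were tested, and 0 to 2 over single arrays left out. Those were Ppara and Rxra with Rxra and Nr1i3 without array 3 (both adjusted p = 0.0456), and Ppara and Nr1h3 without array 6 (r = 0.928, adjusted p = 0.0218). Receptor target pairs numbered 1 under the deposited scaling (Ppara and Pex11a, adjusted p = 0.0230), 1 at the 75th percentile filter (the same pair, 0.0483), and 0 to 1 over single arrays left out: Ppara and Pex11a without array 6 (0.0381), and Nr1i3 and Cyp2b10 without array 5 (r = -0.97, adjusted p = 0.0321). The causes were not tested, except that the stricter filter tests fewer pairs. The Nr1i3 and Cyp2b10 value without array 5 is for the brightest Nr1i3 probe set, and the other Nr1i3 sets were not tested there.

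Some values turned sign. The Nr1i2 and Cyp3a11 coefficient was -0.12 under the deposited scaling and -0.42 under median scaling. The Nr1h3 and Abca1 coefficient was 0.584 with the mean over probe sets. The Nr1i2 variance ratio was -0.091 under median scaling and -0.054 without arrays 5 and 6, and ran from -0.011 to 0.51 over single arrays left out. The Nr1h3 ratio was 2.78 with no level filter, where the ratios of all kept members were higher than in the reported setting. After arrays 5 and 6 were left out and the rest renormalized, the Nr1i3 ratio was -1.54 and the Rxra and Nr1i3 coefficient was -0.17. Over single arrays left out, the Nr1i3 and Cyp2b10 coefficient ran from -0.97 to 0.0458 and that of Ppara and Cyp4a10 from -0.51 to 0.309. For the dim receptors, the Nr3c1 and Tat coefficient was 0.280 without arrays 5 and 6, 0.190 by rank, and -0.63 to 0.442 over single arrays left out. That of Thrb and Thrsp was 0.0370, 0 by rank, and -0.35 to 0.248, and that of Esr1 and Lifr ran from -0.51 to 0.0515. The Ppara variance ratio stayed positive throughout, at 4.09 to 8.04. The 8.04 came from the fit with no level filter, and the highest ratio otherwise was 5.07, without array 5.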

Other observations

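Leaving out arrays 5 and 6 brought Nr3c1 and Thrb above the level filter, with log2 variance ratios of 0.73 and 0.81 over the 6 arrays, neither past the unadjusted p in limma's test. Among the other nuclear receptors that were kept, Nr1h4, the bile acid receptor, read 1309 to 2138, with 2102 on array 5, whereas Nr2f6 was lowest there (1103 against 1713 to 1983). Nr5a2, which supports bile acid synthesis genes, was highest on array 5 (1396 against 928 to 1162). The low values of the members on array 5 were thus not shared by all receptor transcripts. These 3 receptors were named after their values were seen, and no difference was tested.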
